A study of Homo sapiens with 6 samples.

Results

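Mucins are large glycoproteins that coat epithelial surfaces. The 10 mucin genes described here are 7 transmembrane mucins (MUC1, MUC3A, MUC4, MUC12, MUC13, MUC17 and MUC20) and 3 gel-forming mucins (MUC5AC, MUC5B and MUC6). They were taken from a fixed list of gene symbols, through every probe set annotated to one of them. They are 10 of the 19775 genes that the arrays name. These genes and the lists read beside them were chosen with earlier results of these data known. Counts over them are therefore a description only. Of the gel-forming mucins, MUC2 was left out of the set. Expression was measured in Caco2 cells, a human colon cancer line, on Affymetrix HG U133 Plus 2.0 arrays, where a probe set reports a transcript as a signal intensity. Methotrexate (MTX), an antifolate, divides the samples: 3 arrays hold RNA of Caco2 cells made resistant by stepwise exposure to the drug, up to 10 µM, and 3 hold RNA of the parental, MTX-sensitive Caco2 cells. Selective medium without glycine, hypoxanthine and thymidine, with dialyzed serum, was used for the resistant cells, and Ham's F12 for the parental ones. Medium and resistance therefore cannot be told apart. Whether the resistant cells are a clone is not given in the sources used here.

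Transmembrane mucins are anchored in the apical membrane. Their heavily O-glycosylated extracellular part stands above the microvilli, where it forms the glycocalyx, and their cytoplasmic tails can take part in signalling. Gel-forming mucins are packed into granules, secreted and linked through disulfide bonds into the polymers of the mucus layer. In the healthy gut, MUC12, MUC13 and MUC17 belong to the surface of the intestine and colon, while MUC5AC is the mucin of the gastric surface cells and MUC6 that of the gastric glands.

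Signals are given below as multiples of the median of their array. The median signal was 11.1, 10.6 and 11.5 on resistant arrays 1, 2 and 3, and 11.1, 12.8 and 11.3 on parental arrays 1, 2 and 3. Arrays of the same group correlated at r between 0.946 and 0.971, with parental array 3 the lowest on average (0.948). Changes are log2 ratios of resistant to parental signal, given with their standard error, and come from limma with Benjamini-Hochberg adjustment over 26563 probe sets whose mean signal reached 1 array median. The labels do not say whether replicate arrays stand for separate cultures. The p-values therefore reflect only how far these samples differ among themselves, which may be a technical spread. Epithelial markers were present in both groups, and 6 of 7 were bright enough to test. Of these 4 rose and none fell, against 7.37% of all tested genes higher and 5.05% lower. KRT8 and KRT18, among the 4, were read by probe sets that share probes with unrelated transcripts. The summed signal of the epithelial markers was 2028 to 2081 in resistant cells and 1474 to 1727 in parental cells. The probe set of the intestinal regulator CDX2 was dim in both groups. It had 1.14, 0.113 and 0.200 in resistant and 0.144, 0.234 and 0.0885 in parental cells, with overlap. Of the fibroblast markers 2 of 6 were tested, of the leukocyte markers 2 of 6 and of the endothelial markers 1 of 4. LUM, a matrix proteoglycan on the fibroblast list, bright enough only in resistant cells, rose (3.20 ± 0.55, adjusted p = 0.00717), and LAPTM5, on the leukocyte list, fell (-0.91 ± 0.25, adjusted p = 0.0468). The summed signal was 7.49 to 8.38 in resistant and 4.95 to 5.70 in parental cells for the fibroblast list. It was 9.57 to 12.2 in resistant and 11.0 to 22.6 in parental cells for the leukocyte list, and 2.71 to 3.34 in resistant and 2.16 to 4.05 in parental cells for the endothelial list. Under the median on every array were 3 fibroblast markers (PDGFRB, COL1A2 and COL3A1), 2 leukocyte markers (PTPRC and TYROBP) and 2 endothelial markers (CDH5 and KDR). Above the median on every array were COL1A1 (3.16 to 3.78), CD14 (5.49 to 14.8), LAPTM5 (2.02 to 5.59) and PECAM1 (1.51 to 2.26). The part of these marker differences in the mucin results was not tested.

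The promoters of MUC13, MUC12 and MUC17 are shown, because these are the transmembrane mucins with a RefSeq promoter entry whose brightest probe set separated resistant from parental arrays. Of the 10 genes, 6 had an entry (GRCh38.p14). The 250 bases before the start are printed 5′ to 3′ on the gene's strand. Capitals mark matches, on either strand, to letters found in binding sites of gut regulators. For CDX factors the letters were TTTAT. For HNF1 factors they were GTTAAT, for GATA factors TGATAA and as an alternative form AGATAA, and for FOXA factors they were TGTTTA. CDX and GATA matches can overlap.
MUC13 (chr3:124934752-124935001, strand -): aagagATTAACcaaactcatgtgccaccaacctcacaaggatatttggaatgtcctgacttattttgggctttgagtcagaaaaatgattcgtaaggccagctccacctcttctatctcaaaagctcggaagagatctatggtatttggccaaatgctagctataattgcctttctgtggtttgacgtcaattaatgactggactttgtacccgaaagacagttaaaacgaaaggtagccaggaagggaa
MUC12 (chr7:100969315-100969564, strand +): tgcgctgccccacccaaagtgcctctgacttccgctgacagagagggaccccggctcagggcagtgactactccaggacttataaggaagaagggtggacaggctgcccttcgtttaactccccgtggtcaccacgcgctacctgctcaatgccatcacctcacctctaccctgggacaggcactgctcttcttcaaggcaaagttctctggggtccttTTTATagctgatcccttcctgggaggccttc
MUC17 (chr7:101019831-101020080, strand +): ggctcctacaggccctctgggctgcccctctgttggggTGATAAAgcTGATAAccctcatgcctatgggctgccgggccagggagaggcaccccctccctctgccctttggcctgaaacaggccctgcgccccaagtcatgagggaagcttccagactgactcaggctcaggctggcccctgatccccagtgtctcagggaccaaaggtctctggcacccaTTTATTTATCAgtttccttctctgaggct
Among 35116 RefSeq windows of the same length, 32.7% held the CDX letters, 6.23% the HNF1 letters, 14.6% a GATA match and 11% the FOXA letters. The MUC13 window held a GTTAAT match at position -245 from the start and no match to the others. MUC12 held TTTAT at position -31. The MUC17 window held 3 matches to TTTAT, of which 2 overlap each other, and 3 GATA matches, of which 2 share letters with TTTAT matches. A match describes letters in the window and is not evidence of binding.

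The 10 genes are read by 29 probe sets, 21 for transmembrane and 8 for gel-forming mucins. Testing was limited to those averaging 1 array median or more. That left 10 probe sets of 5 genes, MUC3A, MUC4, MUC13 and MUC20 among the transmembrane and MUC5AC among the gel-forming mucins. The other 19 probe sets were too dim, and MUC1, MUC12, MUC17, MUC5B and MUC6 had no probe set that passed. Read by the brightest tested probe set, 2 genes were higher in resistant cells (MUC13 and MUC5AC) and 1 was lower (MUC20) at an adjusted p below 0.05, against 7.37% of all 11849 tested genes higher and 5.05% lower. The MUC5AC probe set read here (214385_s_at) passed the brightness filter only through its resistant arrays, so it adds no support to that count. The other tested MUC5AC probe set, bright enough in both groups, did not pass the test. Over probe sets, 3 of the 10 tested were higher and 2 lower, against 5.75% and 4.27% of all tested probe sets. The 3 are 214385_s_at, which adds no support to this count either, and both probe sets of MUC13. The 2 are both of MUC20. The 4 tested transmembrane genes had a median log2 change of 0.28, beside 0.02 over all tested genes, and their values ran in both directions. Without parental array 3 this median was -0.16 and without parental array 2 it was 0.51.

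**Figure D1:**
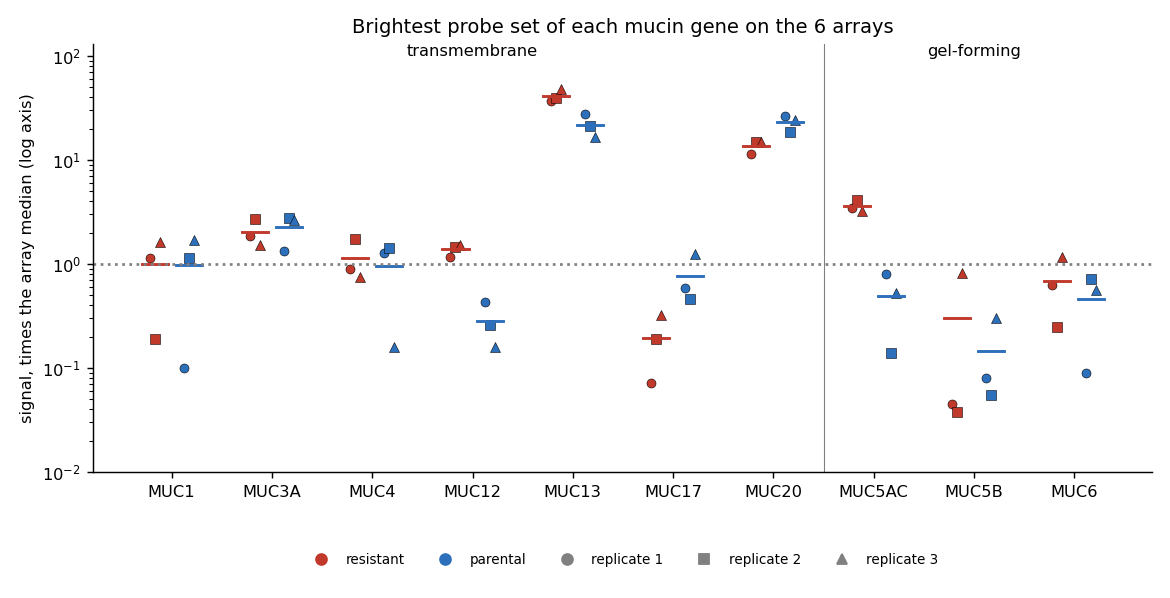
Signal of the brightest probe set of each mucin gene in times the array median (log axis, dotted line at 1), with resistant arrays in red on the left and parental arrays in blue on the right. Marker shapes are replicates and bars are group means; the groups lie apart for MUC12, MUC13, MUC17, MUC20 and MUC5AC, and heights of different probe sets are not comparable.

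MUC13, a transmembrane mucin of the enterocyte surface, was higher in resistant cells on both of its probe sets. On 222712_s_at the signal was 36.8, 39.5 and 48.2 in resistant cells and 27.8, 21.0 and 16.5 in parental cells. Every resistant array lay above every parental array, and the parental arrays spread more in proportion than the resistant ones. The gene rose 1.94-fold on this probe set (0.95 ± 0.20, adjusted p = 0.0165). In RNA of a whole culture, a change in the share of cells that express a gene and a change in RNA per cell cannot be told apart. On 218687_s_at the signal was 35.4, 33.8 and 28.9 in resistant cells and 21.2, 16.0 and 10.7 in parental cells, and the groups again did not overlap. The rise there was 2.12-fold (1.09 ± 0.23, adjusted p = 0.0175). Parental array 1 was the highest and parental array 3 the lowest of its group on both probe sets, whereas resistant array 3 was the highest of its group on the first and the lowest on the second. Without parental array 3 the changes were 0.77 and 0.82 and both still passed the test. Leaving out any of the 3 resistant arrays ended the call on both probe sets (adjusted p between 0.0537 and 0.0881), with the change between 0.84 and 1.17. Both probe sets are of the type that reads several transcripts of a gene or family. MUC13 lies on chromosome 3. Of the 5 coding genes on each side of it, 9 had a tested probe set, of which 2 rose and 1 fell, against 7.37% of all tested genes higher and 5.05% lower. The 2 that rose were KALRN (1.14 ± 0.17, adjusted p = 0.00344) and SLC12A8 (0.64 ± 0.17, adjusted p = 0.0412). The one that fell was its direct neighbour ITGB5, an integrin subunit (-0.68 ± 0.12, adjusted p = 0.00662).

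MUC20 was lower in resistant cells. It is a transmembrane mucin known from cultured cells as a partner of the receptor MET. On 226622_at, the brightest of its 4 probe sets, the signal was 11.5, 14.8 and 14.7 in resistant cells and 26.7, 18.4 and 24.0 in parental cells. All resistant arrays lay below all parental arrays, and the gene fell 1.67-fold (-0.74 ± 0.18, adjusted p = 0.0318). On 230043_at the signal was 1.40, 2.06 and 1.23 in resistant cells and 5.21, 3.83 and 2.59 in parental cells. The groups did not overlap there either, with a 2.45-fold lower level (-1.29 ± 0.32, adjusted p = 0.0313). The remaining probe sets did not pass the test: on 231941_s_at the signal averaged 9.24 ± 1.92 in resistant and 12.7 ± 2.57 in parental cells (SD, with overlap; change -0.46 ± 0.21, adjusted p = 0.203), and on 243774_at the change was -0.26 ± 0.30 (adjusted p = 0.627). All 4 changes were negative, though 2 did not pass the test. Without any resistant array, or without parental array 1, the call on 226622_at was lost (adjusted p between 0.0866 and 0.147). On 230043_at it was lost without resistant array 1 or 3 and without parental array 1 or 2 (between 0.0909 and 0.118). RefSeq also lists a MUC20 pseudogene, and signal from a near-identical copy cannot be separated here.

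**Figure D2:**
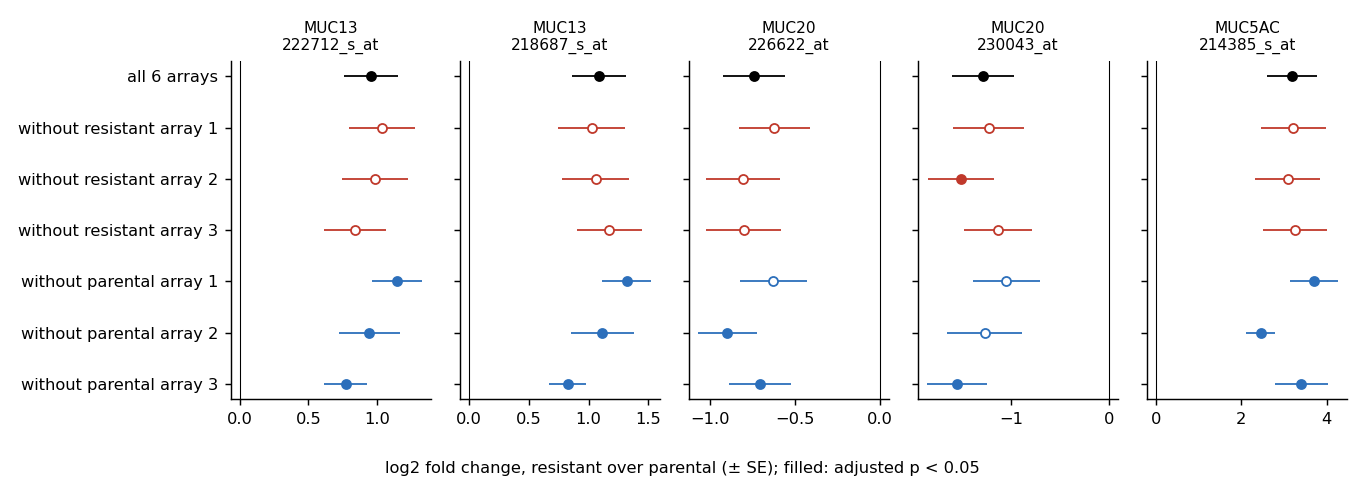
Log2 fold change (± SE, resistant over parental) of the 5 mucin probe sets past the test, with all 6 arrays and with each array left out. Filled points have an adjusted p below 0.05: no change of sign occurred, and open points appear for every setting that leaves out a resistant array except 1 on MUC20 230043_at.

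The protein partners and sheddases of membrane mucins were read beside these genes. All 15 were tested, of which 1 rose and 2 fell at the same threshold, and 12 did not pass, against 7.37% of all tested genes higher and 5.05% lower. The median change was -0.08. EGFR, the receptor of epidermal growth factor, fell on 3 of its 4 tested probe sets. The brightest changed by -0.91 ± 0.16 (adjusted p = 0.00670), with signals of 8.70, 8.74 and 8.32 in resistant cells and 14.0, 16.4 and 18.3 in parental cells. MET, the hepatocyte growth factor receptor, was lower on its brightest probe set (-0.47 ± 0.12, adjusted p = 0.0377), and its 3 other tested probe sets did not pass. ERBB3, a receptor of the same family as EGFR, was higher on its brightest probe set (0.60 ± 0.13, adjusted p = 0.0186), and its 3 others did not pass.

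MUC4, a partner of ERBB2, and MUC3A, a mucin of intestinal epithelium, showed no difference past the test. MUC4 on 240164_at had signals of 0.892, 1.75 and 0.748 in resistant cells and 1.29, 1.42 and 0.159 in parental cells (0.67 ± 0.84, adjusted p = 0.649). The sign rests on parental array 3, without which the change was -0.36. Of its 5 other probe sets, all under the filter, only 217109_at separated the groups, at 0.0721, 0.0377 and 0.0783 in resistant and 0.297, 0.336 and 0.0796 in parental cells, where the lowest parental value is barely above the highest resistant one. MUC3A on 217117_x_at had 1.86, 2.73 and 1.53 in resistant and 1.34, 2.76 and 2.65 in parental cells (-0.11 ± 0.35, adjusted p = 0.863). That probe set shares probes with unrelated transcripts. Without resistant array 3, parental array 2 or parental array 3 the MUC3A change turned positive (0.071, 0.068 and 0.040).

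The transmembrane genes under the filter gave only low signals. A fit without the filter was run for them, over 54613 probe sets, in which 2.12% of all probe sets were called higher and 1.55% lower. Of the 29 mucin probe sets, 4 were higher in it and 1 lower, and none of these read a transmembrane gene under the filter. The 4 were both probe sets of MUC13, with 214385_s_at and 214303_x_at of MUC5AC. The 1 was 226622_at of MUC20. MUC20 on 230043_at did not pass in this fit (adjusted p = 0.0583 in limma). MUC12 on 226654_at had 1.16, 1.47 and 1.52 in resistant cells and 0.432, 0.258 and 0.159 in parental cells. All resistant values exceeded the array median and all parental values lay under it, and the change of 2.40 ± 0.62 did not pass the test (adjusted p = 0.0592 in limma). On 231814_at, its other probe set, the groups overlapped (-0.14 ± 0.91). MUC17 on 232321_at had 0.0721, 0.189 and 0.322 in resistant cells and 0.586, 0.461 and 1.25 in parental cells. The groups did not overlap and the change was -2.09 ± 0.85 (adjusted p = 0.239 in limma), while its other probe set overlapped (-1.02 ± 1.06). MUC12 and MUC17 are neighbours on chromosome 7, beside MUC3A. MUC1, which signals through its tail in many carcinomas, had 3 probe sets with mean signals just under the filter. The brightest, 207847_s_at, had 1.15, 0.189 and 1.63 in resistant and 0.0991, 1.13 and 1.68 in parental cells, and all 3 overlapped between the groups.

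MUC5AC, the gel-forming mucin of the gastric surface, was higher in resistant cells on 1 of its 2 tested probe sets, the one that passed the filter only through its resistant arrays. On 214385_s_at the signal was 3.41, 4.10 and 3.23 in resistant cells and 0.802, 0.141 and 0.531 in parental cells. Resistant values lay above the array median and parental values under it. The level was 9.11-fold higher (3.19 ± 0.60, adjusted p = 0.0103). The size depends on how the dim parental signals are treated: raising low signals to the 25th percentile gave 7.17-fold and adding 0.5 array medians gave 4.28-fold, both past the test. Without parental array 2, which had the lowest value, it was 5.46-fold. Leaving out any resistant array ended the call (adjusted p between 0.0517 and 0.0663).

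The 3 other MUC5AC probe sets did not all follow. On 214303_x_at, under the filter, the signal was 1.57, 1.51 and 0.878 in resistant cells and 0.0901, 0.109 and 0.106 in parental cells. That is a clear separation at low signal (3.65 ± 0.72 in the fit without a filter, adjusted p = 0.0185), but the probe set shares probes with unrelated transcripts. On 217187_at the signal was 1.67, 0.811 and 1.17 in resistant and 1.05, 0.805 and 1.19 in parental cells, with no difference past the test (0.22 ± 0.43, adjusted p = 0.780). On 217182_at it was 0.613, 0.774 and 0.200 in resistant and 0.135, 0.391 and 0.973 in parental cells, and the groups overlapped. The 2 probe sets that moved are those of the shared or several-transcript types, and the 2 that did not are of the unique type. With the shared and several-transcript types left out, MUC5AC showed a change of 0.22 (adjusted p = 0.786).

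**Figure D3:**
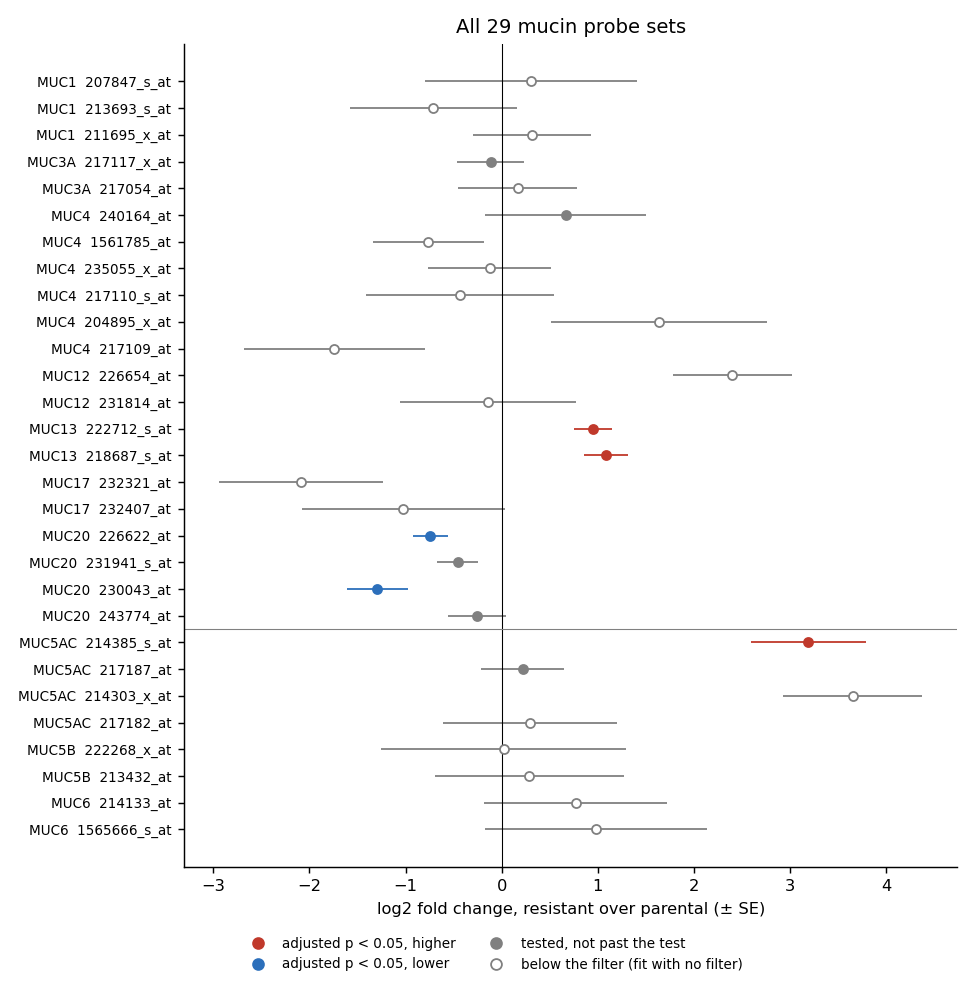
Log2 fold change (± SE, resistant over parental) of all 29 mucin probe sets, grouped by gene, with transmembrane mucins above and gel-forming mucins below the grey line. Red and blue points have an adjusted p below 0.05, grey filled points were tested and did not pass, and open points lie below the filter and come from the fit with no filter.

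MUC5B, a mucin of airway and salivary glands, and MUC6 had 2 probe sets each, all dim and all overlapping between the groups. MUC5B on 222268_x_at had 0.0450, 0.0377 and 0.817 in resistant and 0.0811, 0.0547 and 0.301 in parental cells. MUC6 on 214133_at had 0.622, 0.245 and 1.17 in resistant and 0.0901, 0.711 and 0.566 in parental cells (0.77 ± 0.95). Over all members, resistant arrays lay wholly above parental arrays on 5 of the 29 probe sets and wholly below on 4. The share over all probe sets was not computed, so these counts are a description only. Among the 10 tested the counts were 3 and 2, against 17.7% and 14.4% of all tested probe sets. The 3 include 214385_s_at of MUC5AC, which passed the filter only through its resistant arrays and adds no support to this count.

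MUC5AC, MUC5B, MUC6 and MUC2 form a cluster on chromosome 11. Of the 5 coding genes on each side of MUC5AC, 6 were tested and none rose or fell. Over all tested genes, 7.37% were higher and 5.05% lower. The 6 include MUC2, the gel-forming mucin of goblet cells. Its signal was 1.54, 2.07 and 2.38 in resistant cells and 0.739, 1.09 and 0.381 in parental cells. The groups lay apart, with a change of 1.54 ± 0.47 that did not pass the test (adjusted p = 0.0650). Of 12 other mucins, MUC2 included, 3 were tested, none passed, and 1 was higher at an unadjusted p below 0.05. That 1 is MUC2, which averaged under the array median in parental cells. It passed the filter only through its resistant arrays and adds no support to that count. CD164, a sialomucin of the cell surface, had the next largest change (0.26). None of the 8 tested flanking genes of MUC20 passed the test. At the shares over all tested genes, few calls would come among so few genes, so these counts say little.

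Genes that act with mucins in the mucus or in its secretion were read beside them. Of 10 such genes 8 were tested, 6 rose and 1 fell, against 7.37% of all tested genes higher and 5.05% lower. Like the other lists, this one was chosen with earlier results of these data known. Its count is therefore a description and no evidence of an excess. The median change was 1.86. FCGBP, 1 of the 6, averaged under the array median in parental cells and adds no support to that count. AGR3, of a family of endoplasmic reticulum proteins that help secretory folding, had a signal of 48.8, 46.0 and 61.5 in resistant and 0.775, 1.00 and 1.48 in parental cells (5.63 ± 0.24). TFF3, a trefoil peptide of goblet cells, rose by 4.90 ± 0.40, and FCGBP, a protein of the mucus gel, by 3.20 ± 0.48 (adjusted p = 0.00359). TFF2, the trefoil peptide that accompanies MUC6 in the stomach, fell (-2.24 ± 0.29, adjusted p = 0.00154), with 1.86, 1.41 and 1.80 in resistant and 7.23, 5.59 and 12.2 in parental cells. TFF1, which accompanies MUC5AC in the stomach, rose 2.83-fold (adjusted p = 0.0362). 

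The gastric epithelium list held 6 tested genes of 12, of which 2 rose and none fell (median 0.53), against 7.37% of all tested genes higher and 5.05% lower. ANXA10, an annexin of gastric epithelium, had 90.2, 94.6 and 91.5 in resistant and 1.58, 6.30 and 11.6 in parental cells (4.24 ± 0.56, adjusted p = 0.00173). GATA6, a transcription factor of stomach and gut, rose (0.80 ± 0.16, adjusted p = 0.0160). CTSE, also on this list, averaged 4.46 in resistant and 6.81 in parental cells. Its resistant arrays all lay below its parental arrays, but the change did not pass the test (-0.55 ± 0.24, adjusted p = 0.17). At an unadjusted p below 0.05, 3 genes of this list were higher and 1, CTSE, was lower. Gastrokines GKN1 and GKN2, the claudin CLDN18 and pepsinogen C lay under the filter, with group means between 0.280 and 1.22.

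The enzymes that start and extend O-glycans, the sugar chains of all these mucins, were tested in 16 of 18 cases. Of these 4 rose and 1 fell (median 0.56), against 7.37% of all tested genes higher and 5.05% lower. Without parental array 3 these counts were 8 and 2, while the calls over all tested probe sets also grew, to 3586 higher and 3518 lower, against 1528 and 1135 with all arrays. ST6GALNAC1, which adds sialic acid to the first sugar, rose (2.14 ± 0.27, adjusted p = 0.00131), as did ST3GAL1 (1.02 ± 0.23, adjusted p = 0.0211, with 2 of 3 tested probe sets higher). C1GALT1, which makes the core 1 chain, fell (-0.71 ± 0.17, adjusted p = 0.0261) on 1 of its 3 tested probe sets.

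Of 18 transcription factors studied at mucin genes, 12 were tested, 3 rose and none fell (median 0.15), against 7.37% of all tested genes higher and 5.05% lower. FOXA2 and ATOH1, 2 of the 3, averaged under the array median in parental cells and passed the filter only through their resistant arrays, so they add no support to that count. FOXA2, a forkhead factor of the endoderm, had 6.35, 6.74 and 5.49 in resistant and 0.324, 0.805 and 0.513 in parental cells (3.59 ± 0.35, adjusted p = 0.000340, with both of its tested probe sets higher). ATOH1, the factor that sets the secretory lineage of the gut, rose 3.73-fold (adjusted p = 0.00553), and SPDEF, a goblet cell factor, rose (0.65 ± 0.17, adjusted p = 0.0436) on 1 of its 4 tested probe sets, which shares probes with unrelated transcripts.

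**Figure D4:**
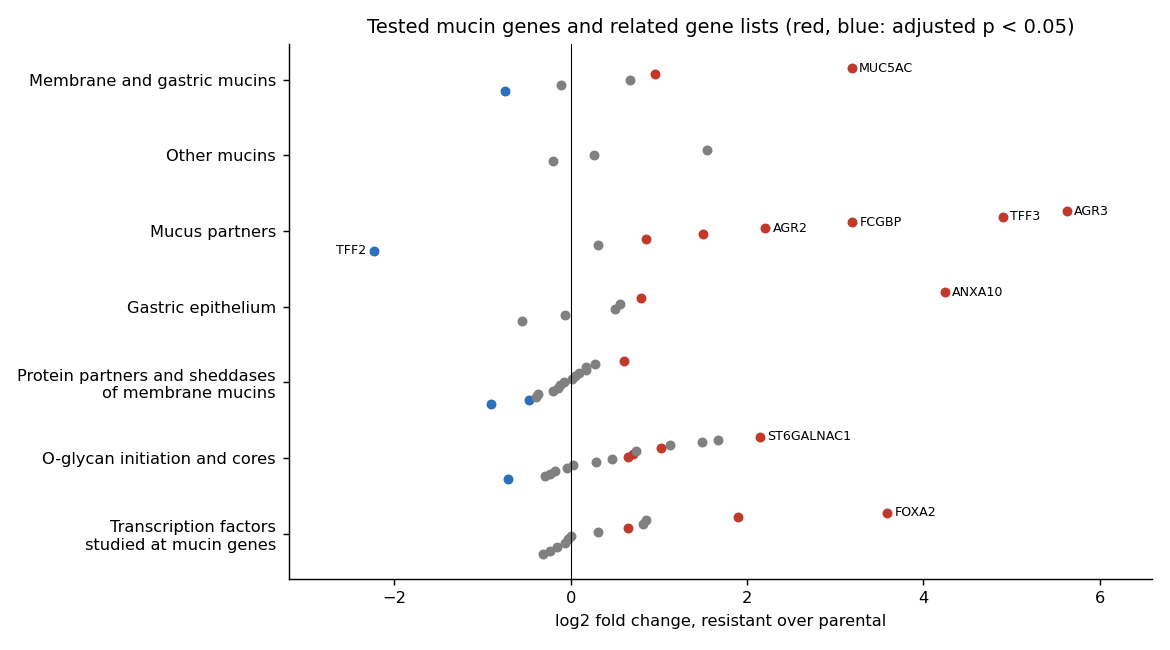
Log2 fold change (resistant over parental) of every tested gene of the mucin set and of 6 related lists, 1 point per gene, with red and blue marking an adjusted p below 0.05. The mucin genes span -0.74 (MUC20) to 3.19 (MUC5AC), and AGR3, at 5.63, is the farthest to the right of all.

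The genes whose values over the 6 arrays were most like those of a changed mucin were found among 11848 tested genes. For MUC13 these were CAPN5 (Pearson r = 0.997), IFNL1 and SLC46A1. For MUC20 they were DDX56 (r = 0.991), SCNN1A and MALT1, and for MUC5AC LSM4 (r = 0.997), FBXO33 and IL17RB. The arrays are shared by every gene, and 147, 67 and 223 genes lay above r = 0.95 for MUC13, MUC20 and MUC5AC, so these values are a description only.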

How the data were processed

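The authors deposited 1 linear intensity per probe set and array for 6 arrays, 3 of resistant and 3 of parental Caco2 cells. The submitters' notes name MAS5. Its version is not given in the sources used here, nor is its scaling target. Detection calls were not used here. Groups and replicate numbers came from the sample titles. The 62 control probe sets were left out, each intensity was divided by its array median, exact zeros were set to 0.05, and values were log2 transformed. The groups were compared by limma 3.58.1 in R 4.3.3 (lmFit, then eBayes with its trend option, two-sided), over the 26563 probe sets averaging 1 array median or more, with Benjamini-Hochberg adjustment. A gene was read by its brightest tested probe set. With 3 arrays a group an exact permutation test reaches no p under 0.1, so none was run. The script was tested on simulated data. Symbols were those of the platform annotation, updated to RefSeq (GRCh38.p14). Of the probe sets 41091 had 1 symbol, 1801 had several and 11721 were not listed. Sequences are from RefSeq tables.

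The members and lists were chosen with earlier results of these data known. Named were all members, up to 3 genes of each list with the largest change past the test (where none passed, the 2 largest changes), and the 3 genes most alike to each changed member. ITGB5, KALRN, SLC12A8, TFF1, TFF2, LUM, LAPTM5, CDX2, KRT8, KRT18, COL1A1, CD14, PECAM1 and the dim marker genes were named outside this rule. So were CTSE, GKN1, GKN2, CLDN18 and pepsinogen C. Alternatives were other scalings, filters, floors, offsets, variance models, probe set choices, a replicate block, the methods' t-test, a 2-fold threshold and each array left out. The planned description of protein sequences was not made.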

Additional observations from a re-analysis of the deposited data

How the results depend on the processing

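The number of mucin genes higher in resistant cells (2) was 1 with a filter at 3 times the median or without an intensity trend. It was also 1 with at least 2-fold change, and 0 with the methods' t-test. Without probe sets of the shared and several-transcript types, called shared types below, it was 0 as well. That setting left MUC13 untested, since both of its probe sets are of the several-transcript type. The number lower (1) was 0 without an intensity trend, with the replicate block, with the t-test or with the 2-fold threshold. With single arrays left out, these numbers ran from 0 to 2 and from 0 to 1. In all these settings 2 mucin genes were higher and 1 lower at an unadjusted p below 0.05, except for 1 and 1 with the stricter filter and 0 and 1 without shared types. The gel-forming median, MUC5AC alone at 3.19, was 0.77 over 3 genes with no filter, 2.10 with the offset, 1.70 as the mean of probe sets and 0.22 without shared types, and 2.45 to 3.71 with arrays left out. The transmembrane median was -0.037 without shared types and -0.16 to 0.51 with arrays left out. Over all tested probe sets, 1528 were higher and 1135 lower; without an intensity trend these counts were 698 and 504, with the t-test 198 and 121, with no further scaling 1054 and 1204, and with arrays left out 476 to 3586 and 393 to 3518, the highest without parental array 3 for both. With arrays left out, MUC3A ran from -0.45 to 0.071, positive without resistant array 3, parental array 2 or parental array 3. MUC4 ran from -0.36 (without parental array 3) to 1.22 and MUC5AC on 217187_at from -0.037 (without resistant array 1) to 0.48. MUC12 passed in the fit without a filter when low signals were raised (adjusted p = 0.0486), with the offset (0.0427) and without parental array 3 (0.0491). The cause of these changes was not tested.

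Replicate numbers did not pair the arrays, since deviations of same-numbered arrays correlated at -0.02. With the replicate block, 1265 probe sets were higher and 828 lower, and MUC20 on 226622_at had an adjusted p of 0.0593. Signals near or under the array median limit MUC1, MUC4, MUC12, MUC17, MUC5B and MUC6. They also limit MUC5AC, whose brightest probe set lay under the median on every parental array. The 3 arrays per group limit every value.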
